A study of Mus musculus with 2 samples.

Results

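The Slit ligands (Slit1, Slit2 and Slit3), the Robo receptors (Robo1, Robo2 and Robo3) and the Slit-Robo GTPase-activating proteins (Srgap1, Srgap2 and Srgap3) were followed in newborn mouse forebrain. These 9 genes were taken from the 43346 genes in the gene tables by their gene identifiers, matched to the GENCODE mouse annotation, and their transcripts by the same identifiers. Total RNA was sequenced from the forebrain of 2 mice of strain B6NCrl on postnatal day 0, called pup 1 and pup 3 in the labels, with 1 library each. Both libraries form 1 untreated group, no altered allele or agent is given for either, and the data hold no contrast between conditions. The labels describe 1 whole forebrain per pup but give both the same donor identifier, so the spread between the libraries may include technical differences. Each library began with 10 ng of RNA longer than 200 nt. The libraries held 40066386 (pup 1) and 40431595 (pup 3) expected counts, and the 9 genes held 0.0489% and 0.0388% of them.

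Slits are large secreted proteins that bind Robo receptors on axons and migrating neurons, and the classical outcome is repulsion from the source of Slit. The receptor's cytoplasmic tail recruits adaptors and srGAPs, which act on small GTPases and, through their F-BAR domain, on membrane shape. In the forebrain this system is known for guiding corticofugal, callosal and thalamocortical axons and for its part in interneuron migration. Whole tissue was measured, so fewer cells of a type and less RNA per cell cannot be told apart.

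The tissue label was checked with marker genes. All 10 telencephalic markers were detected, meaning a TPM (a level scaled to transcript length and library size) of 1 or more in both pups, and their TPM summed to 564 in pup 1 and 639 in pup 3. Of 9 markers of diencephalon and hypothalamus, 7 were detected, and their sums were 455 and 181. None of 7 midbrain and hindbrain markers was detected, their sums were 1.09 and 1.04, and Hoxa2, Hoxb2 and Hoxb4 were at 0 in both pups.

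The Slit2 and Slit3 loci each carry a copy of the miR-218 hairpin inside an intron, and miR-218 is known to target Robo receptors. The hairpins and the matches to their seed in the family, which were not confined to the receptors, are shown first. In GENCODE M21 on GRCm38, Mir218-1 (chr5:48223942-48224051, plus strand) lies in intron 16 of 37 of the Slit2-202 model. Mir218-2 (chr11:35616816-35616925, plus strand) lies in intron 14 of 35 of Slit3-201. Both give the same mature 5p strand in RefSeq (GRCm38.p6), printed here 5′ to 3′ with the seed, bases 2 to 8, in capitals.
mmu-miR-218-5p: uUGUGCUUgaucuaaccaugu
Both hairpin genes were listed at 0 counts in both libraries. Each hairpin is 110 nt and the libraries hold RNA longer than 200 nt, so these zeros say nothing about mature miR-218, which was not measured.

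The complement of the seed, AAGCACA on the transcript's strand, was searched in the longest annotated 3′ UTR of each gene in GENCODE M21, which need not be the one these libraries expressed. It occurred in 13.8% of 21045 genes. In the family there were 2 matches each in Slit2 and Robo2, 1 each in Robo1, Robo3, Srgap2 and Srgap3 and none in Slit1, Slit3 or Srgap1. The receptor matches, with the 7 matching bases in capitals, are as follows.
Robo1: ttttggttttaaAAGCACAatcactaaact
Robo2 site 1: ttatttggtgatAAGCACAaatctctactc
Robo2 site 2: cacggcagacccAAGCACAgcttctttcag
Robo3: tgtgactcactgAAGCACActgtctacaac
The Robo1 match begins 986 bases after the stop codon and is also in Robo1-201, the only Robo1 transcript in the quantification. The first Robo2 match begins 461 bases after the stop and is in Robo2-202, that gene's leading transcript, and in Robo2-203. The second, at 2787 bases, is in Robo2-203 and not in Robo2-202. Robo2-203 is 8591 nt in M21 and 8124 nt as deposited, so it is not known whether the quantified model holds either match. Long 3′ UTRs hold the motif more often: it was in 18.1% of UTRs within 20% of Robo1's length and in 37.3% of those like Robo2's. For Slit2, Srgap2 and Srgap3 the shares at like length were 32.9%, 38.2% and 42.6%. For the genes without a match they were 11.1% (Slit1), 3.14% (Slit3) and 39.9% (Srgap1). Robo3's UTR is short, and 2.78% of UTRs of like length held the motif. A match is a description of sequence and not a measured target site.

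Robo2 had the highest level of the 9 genes in both pups. Robo2, a receptor for all Slits that works with Robo1 in forebrain axon guidance, was at 38 TPM in pup 1 and 31.2 TPM in pup 3 (34.6 ± 4.79, SD, n = 2). Robo1 was at 20.8 and 16.7 TPM (18.8 ± 2.91, SD, n = 2). Robo3, the receptor that lets commissural axons of the hindbrain and spinal cord cross the midline and that in mammals does not bind Slits with high affinity, was at 1.35 and 0.39 TPM from 130 and 44 counts. Robo3 was therefore the 1 gene of the 9 below 1 TPM in a pup, and 8 of 9 were detected, beside 60.7% of all nuclear protein-coding genes. The detected protein-coding genes had a median of 17 TPM, and Robo2 stood at percentile 67.8 and Robo1 at percentile 52.8 among them.

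The order of the receptors was the same in both pups. Robo2 exceeded Robo1 by 1.82 times in pup 1 and 1.86 times in pup 3, a mean log2 ratio of 0.88 ± 0.02 (SD, n = 2) on TPM plus 0.1. A difference within a family passed the spread criterion where both pups had the same sign and the mean log2 ratio was over 3 SD, and Robo2 over Robo1 did. Robo1 was 14.4 and 34.3 times Robo3, and Robo2 was 26.3 and 63.9 times Robo3, and both passed. With 2 animals an exact sign-flip test cannot give a two-sided p below 0.5, so no p is given for any ratio.

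Robo1 and Robo2 lie on chromosome 16, Robo1 at chr16:72308306-73046095 on the plus strand and Robo2 at chr16:73891839-74411825 on the minus strand, in GENCODE M21 on GRCm38. Their 3′ ends face each other across 845743 bases. The files' quantification had 1 Robo1 transcript, Robo1-201, where GENCODE M21 lists 9, and that transcript begins 635631 bases downstream of the first Robo1 base in RefSeq. For Robo2, RefSeq's first base lies 1035618 bases upstream of the first base of any quantified transcript. Reads from the distal first exons of either gene are therefore not part of these values. Robo3 (chr9:37415669-37433246, minus strand) has Robo4, an endothelial relative, as its neighbour 553 bases away. Robo4 was at 2.51 and 2.12 TPM, above Robo3 in both pups.

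Among the ligands, Slit1 was at 11.3 TPM in pup 1 and 6.91 TPM in pup 3 (9.13 ± 3.14, SD, n = 2), from 1496 and 1025 counts. Slit1 is the Slit known mainly from the nervous system. Slit2, the ligand best known from midline structures of the ventral forebrain, was at 8.65 and 3.37 TPM (6.01 ± 3.73, SD, n = 2), from 947 and 469 counts. Its posterior mean TPM was higher, at 10.3 and 4.72. The deposited intervals of that mean, 8.89 to 11.7 and 3.82 to 5.7, lay above the TPM in each pup. Slit3, which is also made by vascular and mesenchymal cells in other organs, was at 4.82 and 1.56 TPM (3.19 ± 2.31, SD, n = 2), from 408 and 207 counts.

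All 3 Slits lay in the lower part of the detected protein-coding genes, at percentiles 34.5, 25.4 and 13.2. Slit2 exceeded Slit3 by 1.78 and 2.09 times, which passed the spread criterion. Slit1 exceeded Slit2 by 1.31 and 2.02 times and Slit3 by 2.33 and 4.22 times, and neither passed on TPM plus 0.1, although Slit1 was the higher in both pups. Slit1 over Slit3 did pass with a pseudocount of 1, with posterior mean TPM and with library-scaled counts, at mean log2 ratios of 1.36, 1.56 and 2.07. The loci are long: Slit1 is at chr19:41600257-41743665 (minus strand), Slit2 at chr5:47983138-48307733 (plus) and Slit3 at chr11:35121224-35708507 (plus).

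The srGAPs were close to each other by total TPM. Srgap2, which promotes spine maturation and neurite outgrowth and has partial duplicates in the human genome, was at 23.8 TPM in pup 1 and 13.8 TPM in pup 3 (18.8 ± 7.07, SD, n = 2). Srgap1, whose product inactivates Cdc42 downstream of Slit, was at 23.8 and 11 TPM (17.4 ± 9.04, SD, n = 2). Srgap3, also known as WRP for its partnership with WAVE1, was at 18.1 and 10.9 TPM (14.5 ± 5.11, SD, n = 2). Srgap2 was 0.999 and 1.25 times Srgap1, which did not pass the criterion. Srgap2 exceeded Srgap3 by 1.31 and 1.26 times, which passed on TPM of all transcripts and did not on protein-coding transcripts (1.43 and 1.2 times).

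In all, 5 of 9 within-family differences passed, and 7 of 9 did when only transcripts annotated as protein coding were summed. Over all 9 genes the order by mean TPM ran Robo2, Srgap2, Robo1, Srgap1, Srgap3, Slit1, Slit2, Slit3, Robo3. Of the 8 neighbouring steps in that order, 3 passed the criterion: Srgap3 over Slit1, Slit2 over Slit3 and Slit3 over Robo3. None of the steps from Srgap2 through Robo1 and Srgap1 to Srgap3 passed, and Robo1 was above Srgap2 in pup 3 and below it in pup 1.

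**Figure D1:**
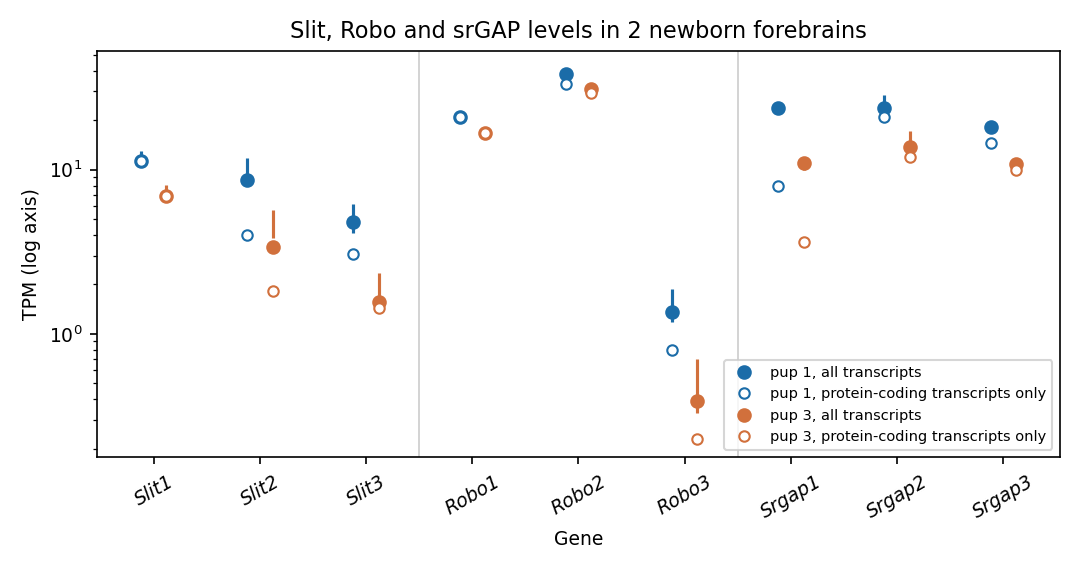
TPM (log axis) of the 9 genes in pup 1 (blue) and pup 3 (orange), with all transcripts as filled circles, protein-coding transcripts only as open circles, and the deposited interval of the posterior mean TPM as a vertical line. Robo2 is highest at 38 and 31.2 TPM, Robo3 lowest, every filled circle is lower in pup 3, and the open circles of Srgap1 lie far below the filled ones.

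Summed by role, the ligands had 24.8 TPM in pup 1 and 11.8 TPM in pup 3, the receptors 60.2 and 48.3 TPM, and the srGAPs 65.8 and 35.8 TPM. The receptor sum was 2.42 and 4.08 times the ligand sum, a log2 ratio of 1.65 ± 0.53 (SD, n = 2), which passed the criterion. The srGAP sum was 1.09 times the receptor sum in pup 1 and 0.74 times in pup 3, so over all transcripts the sign of that difference turned between the pups. On protein-coding transcripts alone the srGAP sum was below the receptor sum in both pups, at 0.789 and 0.551 times, and did not pass the criterion.

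Within the families the coding sequences were identical at 64.9% to 72% of aligned bases, and the deposited posterior SD of the count was 0 for 8 of the genes and 3.43 and 2.68 counts for Srgap1.

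The transcripts behind these totals differed among the genes. In each of the 8 genes with more than 1 quantified transcript, the transcript that led in pup 1 also led in pup 3. For 7 of them it was protein coding. For Srgap1 it was Srgap1-205, annotated as a retained intron, with 15.9 of 23.8 TPM in pup 1 and 7.4 of 11 TPM in pup 3 (66.8% and 67%). The coding transcript Srgap1-201 had 7.82 and 3.64 TPM (32.8% and 33%).

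Length matters for that split. Srgap1-205 is 1457 nt long and Srgap1-201 is 7711 nt, and TPM is divided by length. By expected counts the order was the reverse, with 537 and 283 counts for Srgap1-205 and 1481.3 and 780.5 for Srgap1-201. On coding transcripts alone Srgap1 was at 7.91 and 3.64 TPM, or 0.546 and 0.373 times Srgap3, against 1.31 and 1.01 times by total TPM. Srgap2 was then 2.62 and 3.22 times Srgap1, which passed the criterion, and the coding order of the srGAPs was Srgap2, Srgap3, Srgap1 in both pups.

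Srgap1-205 (chr10:121895837-122047315, minus strand) holds the first 4 of the 22 exons of Srgap1-201 and runs 846 bases past the fourth exon into an intron of 26172 nt. The same layout was found for annotated retained introns of Slit2 and Robo2. Slit2-207 (chr5:47983154-48183157, plus strand) ends 840 bases into the intron after exon 6 of the 38 of Slit2-202. Its M21 length of 3265 nt differs from the 3264 nt deposited, and the Slit2-202 model differs between the annotations too, so these Slit2 positions are those of M21. Robo2-209 (chr16:74349795-74411825, minus strand) ends 2756 bases into the intron of 305613 nt after exon 2 of the 26 of Robo2-202. The exon-intron junctions that these transcripts read through, from GENCODE M21 transcripts, follow with the first 6 intron bases in capitals.
Srgap1-205: gagctctacacgGTGAGTtgactctccgcc
Slit2-207: tctggaagtgctGTGAGTactgctgatttc
Robo2-209: tggaagtggcatGTAAGTagacgccatggg
All 3 begin with GT, as most introns do, and all 3 continue as common donor sequences. Reads here cannot separate a finished short transcript from unspliced precursor RNA of the long gene.

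Slit2, Slit3 and Robo3 also had large shares outside coding transcripts in at least 1 pup. Slit2-202, the coding leader, had 3.28 and 1.53 TPM (38% and 45.5%), and Slit2-207 had 3.23 and 1.03 TPM (37.3% and 30.5%). All coding transcripts of Slit2 had 4 and 1.83 TPM, 46.2% and 54.3% of the gene. On coding transcripts alone Slit1 was 2.79 and 3.63 times Slit2 and 3.62 and 4.58 times Slit3, and both passed the criterion. Slit1 had only coding transcripts above 0, led by Slit1-203 (56.3% and 60.6%) ahead of Slit1-201 (43.7% and 38%).

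Slit3's total TPM included a share from 1 short transcript, although its coding transcript held 95.7% and 99.3% of the gene's counts. Slit3-201, its single coding model, had 3.06 and 1.43 TPM (63.5% and 91.5%). Slit3-204, a processed transcript of 459 nt, had 1.66 and 0.13 TPM (34.4% and 8.55%) from 14.8 and 1.35 counts. Between the pups, Slit3 had a ratio of 0.337 over all transcripts and 0.484 over the coding transcript.

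Robo2 was spread over several models. Robo2-202 led with 13.4 and 12.4 TPM (35.2% and 39.8%), followed by Robo2-203 with 7.54 and 7.43 TPM (19.9% and 23.8%), and these were the leading pair in both pups. Robo2-201 had 6.07 and 4.57 TPM, and Robo2-205, deposited at 519 nt, had 4.8 and 3.37 TPM from 50.1 and 39.8 counts. In M21 Robo2-205 is 774 nt, Robo2-201 is 886 nt against 4764 nt deposited, and Robo2-203 is 8591 nt against 8124 nt. The names and coding type of these 3 models are therefore those of M21 and may not describe the models quantified. Coding transcripts made up 87.7% and 94.1% of Robo2. Robo3, at few counts, was led by Robo3-202 with 58.8% and 41.1%. The coding Robo3-201 had 0% and 17.9%, and the retained introns Robo3-206 and Robo3-203 had 27.1% and 29.3%, and 14.1% and 8.86%. All retained introns together had 41.2% and 38.5% of Robo3's TPM.

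Srgap2 and Srgap3 were mostly coding. Srgap2-201 had 12.3 and 9.84 TPM (51.5% and 71.2%). The shorter coding models Srgap2-202 (4.26 and 0.77 TPM) and Srgap2-204 (3.16 and 0.55 TPM) had smaller shares in pup 3, 5.55% and 3.99% against 17.9% and 13.3%. Srgap2-202 is 418 nt long and rested on 33.8 and 6.87 counts. Srgap2-210, a processed transcript, had 1.76 and 1.61 TPM (7.38% and 11.6%). Srgap3-202 had 9.61 and 6.02 TPM (53% and 55.2%) and Srgap3-203 had 4.95 and 3.92 TPM (27.3% and 36%).

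**Figure D2:**
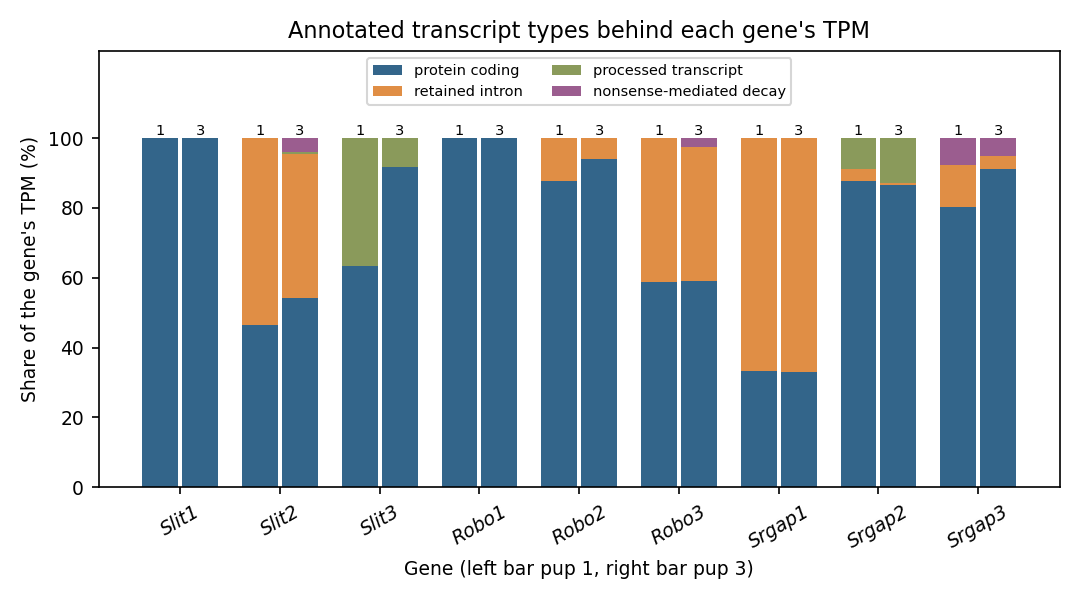
Share of each gene's TPM (percent) by annotated transcript type, left bar pup 1 and right bar pup 3. Retained introns make up 66.8% and 67% of Srgap1 and 53.7% and 41.2% of Slit2, while Slit1 is wholly protein coding. Robo1 had only 1 quantified transcript, which is protein coding, so its share could not differ.

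All 9 genes had a lower TPM in pup 3 than in pup 1, as had 80.4% of the 14985 genes averaging at least 1 TPM. The deposited intervals, which surround a posterior mean TPM at a level not given in the sources used here, did not overlap for the 8 genes of the family that reached that mean, beside 48.0% of all genes that were lower with intervals apart. They cover quantification error within a library and not the difference between animals. Slit2 had 0.397 times its pup 1 level in pup 3, Slit3 0.337 times and Srgap1 0.466 times, on TPM plus 0.1. These 3 of the 8 tested genes were lower by 2-fold or more with intervals apart, beside 3.85% of all genes, and none was higher.

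These calls depended on the measure. TPM is divided by a gene length given per library, in pup 1 and pup 3 3503 and 4820 nt for Slit3, and 4504 and 5045 nt for Slit2. For Srgap1 it was 3507 and 3521 nt. TMM-scaled counts are not divided by length, so they differ from TPM in scaling and in length. The part of each in the lost calls was not tested. Scaled by TMM on expected counts, Slit2, Slit3 and Srgap1 had ratios of 0.543, 0.557 and 0.577, and none of the family was called, with DESeq2 size factors likewise. The median log2 ratio of all genes moved from -0.27 by TPM to 0.03 by TMM. By TPM each of the 9 genes lay below the all-gene median ratio of 0.83, and by TMM, where that median was 1.02, Robo2 did not. Robo1 and Robo2 lay nearest to the all-gene median by TPM, at 0.804 and 0.822, and Robo3 lay far below it at 0.338. By TMM Robo1 was at 0.996, and Robo2 at 1.08.

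Slit1 had a ratio of 0.612, Srgap2 0.582 and Srgap3 0.603 by TPM, and 0.752, 0.899 and 0.826 by TMM. Robo3 had the ratios 0.338 and 0.371 but did not reach the mean of 1 TPM. The median over the 9 genes was 0.582 by TPM and 0.752 by TMM. Genes with long transcripts were generally lower in pup 3: of 2580 nuclear protein-coding genes of 4000 nt or more, 97.2% were lower, their median ratio was 0.711 by TPM and 0.876 by TMM, and 6.67% were called lower. The part of transcript length in the ratios of the family was not tested.

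**Figure D3:**
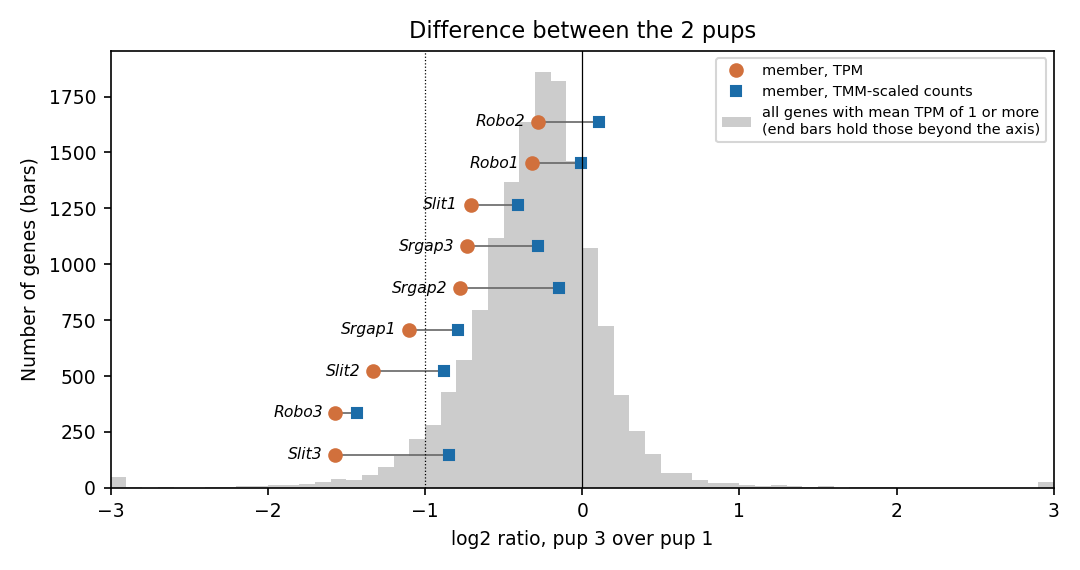
Log2 ratio of pup 3 over pup 1 for each of the 9 genes by TPM (circles) and by TMM-scaled counts (squares), stacked by gene with no meaning in their height, over a histogram of the TPM ratio of all genes averaging at least 1 TPM; the dotted line marks 2-fold lower. Slit2, Slit3, Robo3 and Srgap1 lie past that line by TPM, only Robo3 does so by TMM, and Robo2 alone lies above 0 by TMM.

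Retained-intron transcripts were compared between the pups separately. All 6 genes with any such TPM, with no minimum set, had less of it in pup 3. Of single retained-intron transcripts with a mean of 1 TPM or more, over all nuclear protein-coding genes, 77.6% were lower. The summed retained-intron TPM of the 6 genes was 28.8 in pup 1 and 11.3 in pup 3, a ratio of 0.392. The coding sum over the 9 genes was 117 and 82 TPM, a ratio of 0.703. In 4 of the 6 genes the retained-intron ratio was the lower of the pair, with Srgap3 at 0.225 against 0.685 and Robo2 at 0.406 against 0.882. Srgap1 was not among them, at 0.468 and 0.467. Over all annotated transcripts with a mean of 1 TPM or more, the median ratio was 0.72 for retained introns and 0.833 for protein-coding transcripts. These are medians of single transcripts and not ratios of sums. Summed over all nuclear protein-coding genes with no minimum, retained introns had 36689.7 TPM in pup 1 and 31966.5 TPM in pup 3. Protein-coding transcripts had 757921.7 and 730756.5 TPM. Features inside Srgap2 introns moved the same way, with Gm37954 at 58 and 9 counts and Gm29488 at 30 and 5 counts.

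Markers of brain regions differed between the pups as well. All 9 markers of diencephalon and hypothalamus were lower in pup 3, and 6 of the 7 tested were called lower. Tcf7l2, a thalamic transcription factor, was at 243 and 93.1 TPM, and Lhx9 was at 23 and 5.26 TPM. Telencephalic markers summed to 564 and 639 TPM, although 6 of 10 were lower in pup 3 and 1 was called lower. Markers of cortical glutamatergic neurons summed to 414 and 532 TPM, with 2 of 6 lower in pup 3, and those of GABAergic neurons to 358 and 267, with 6 of 6 lower. Neurod6, at 206 and 329 TPM, is in the telencephalic and the cortical list and had the largest rise in each. The median ratios of these lists were 0.9 and 1.02. Tbr1 is in both as well, and Dlx1, Dlx2 and Dlx5 are in the telencephalic and GABAergic lists, so the sums share genes. Markers of radial glia and astrocytes summed to 2980.2 and 3002.1 TPM, although 5 of 6 were lower in pup 3 with a median ratio of 0.796. Endothelial markers summed to 175 and 174 TPM (4 of 6 lower), meningeal markers to 140.0 and 160.4 (2 of 6 lower), and choroid plexus markers to 1405.2 and 1093.0 (6 of 6 lower). The part of these marker differences in the levels of Slits, Robos and srGAPs was not tested.

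The rest of the pathway was nearly all present. Of 37 partner genes, 36 were detected, and their median was 26.9 TPM. By TPM 35 of the 37 were lower in pup 3, with a median ratio of 0.8, 2 were called lower and none higher. Over all genes 80.4% were lower, the median ratio was 0.83 and 3.85% were called lower, so the partners' calls and median ratio were near the background.

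Among 14 surface and secreted partners, Nell2, a secreted ligand of Robo3, was highest at 225 and 196 TPM. It was far above its receptor, which had 1.35 and 0.39 TPM. Sdc3, a syndecan, was next at 177 and 132 TPM; syndecans carry the heparan sulfate that Slit-Robo binding needs. Robo4 was the lowest. Flrt3, which binds Robo1 in thalamocortical axons, was at 33 and 31.1 TPM, and Dcc, the netrin receptor that Robo1 can silence, was at 8.03 and 4.13 TPM. Sdc4 was called lower, at 14.3 and 6.63 TPM.

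Of the 5 genes for receptor turnover and shedding, Ndfip1 (1031.8 and 886 TPM) and Nedd4 (232 and 143 TPM) were highest; Nedd4 family ligases, recruited by Ndfip adaptors, remove Robo1 from the surface of commissural axons before crossing. Adam10, the protease whose fly counterpart cleaves Robo, was lowest at 40.8 and 31.7 TPM. Usp33, a deubiquitinase that binds Robo1, was at 57.4 and 53.7 TPM. All 5 were detected, and none was called different.

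The 18 intracellular effectors ranged most widely. The GTPases Cdc42 (1059.2 and 1040.5 TPM) and Rac1 (334 and 306 TPM) were highest. Rhoa was at 234 and 197 TPM. Arhgap4, the srGAP relative that lies outside the family studied here, was lowest at 1.35 and 0.94 TPM and was the single partner not detected. Enah, the Ena/VASP protein that binds the Robo tail, was called lower at 13.8 and 6.67 TPM.

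**Figure D4:**
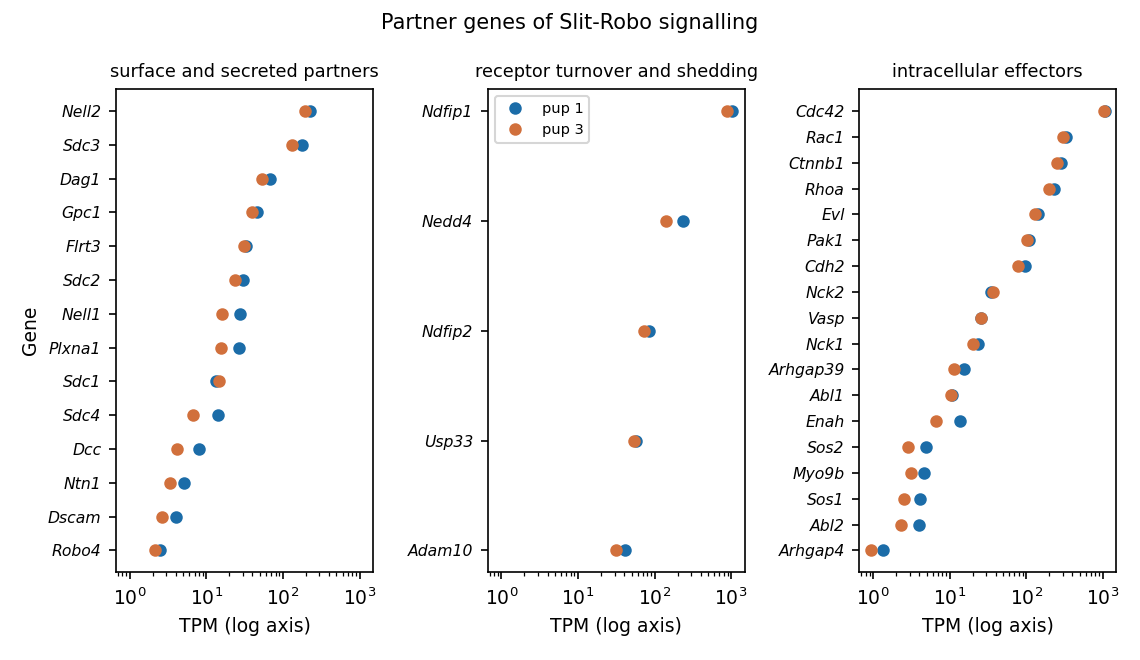
TPM (log axis) of the 37 partner genes in pup 1 (blue) and pup 3 (orange), in 3 lists. Levels run from Arhgap4 at 1.35 and 0.94 TPM to Cdc42 at 1059.2 and 1040.5 TPM, and most orange points lie to the left of the blue ones.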

How the data were processed

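The authors deposited gene and transcript tables with expected counts, TPM, posterior mean TPM with interval bounds and, per the file headers, each transcript's percent of its gene's TPM. The submitters' processing notes name mm10 and GENCODE M4; the sources used here do not name the aligner, quantifier or strand setting, and overlapping or antisense genes cannot be separated without strand. Names, types and positions came from GENCODE M21 by identifier without version (42462 of 43346 genes matched). Rows that are not genes held 8.45e-04% and 6.93e-04% of counts and stayed out of gene totals. Ratios used TPM + 0.1, which understates changes of low genes. Differences between pups needed a mean TPM of 1, 2-fold and deposited intervals apart. Counts were rounded to whole numbers for TMM (edgeR 4.0.16) and DESeq2 1.42.0 size factors, in R 4.3.3; no model was tested.

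All 9 members were named. Of each partner list the 2 highest, the lowest and those a sentence turned on were named, and of transcripts the leader and those above 10 percent in either pup. Members and lists were chosen with earlier results of these data known. The length class of 4000 nt, the comparison of retained introns and the sequence searches were chosen after values were seen, as were the alternatives for the number of genes lower in pup 3. Python 3.11.15 was used for the rest.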

Additional observations from a re-analysis of the deposited data

How the results depend on the processing

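With 1 library per pup, the spread between 2 animals limits every statement, and low counts limit Robo3 and the shortest transcripts. The 3 calls between the pups came to 0 with TMM, 0 with DESeq2 size factors and 6 at 1.5-fold. Detected genes of the family, 8 in the main setting, were 6 at a TPM minimum of 5 and 9 at any TPM above 0. Detected partners, 36 in the main setting, were 28 at a minimum of 5 and 37 at a minimum of 0.5. Family differences past the criterion, 5 in the main setting, were 6 with a pseudocount of 1 or with posterior mean TPM. They were 7 with coding transcripts. Both ratios of sums stayed on their side of the criterion in the alternatives that used both pups. The receptor to ligand log2 ratio was 2.03 without pup 1 and 1.28 without pup 3, and the srGAP to receptor log2 ratio was -0.43 without pup 1 and 0.13 without pup 3. The Srgap1 over Srgap3 log2 ratio of 0.21 reversed to -0.93 with library-scaled counts and to -1.15 with coding transcripts, and Srgap2 over Srgap3 (0.36) reversed to -0.11 with library-scaled counts, which are not divided by length. Robo2 in pup 3 over pup 1 (-0.28) reversed to 0.11 with TMM and with DESeq2 size factors. Leaving out a pup gives no SD for a family difference, so the criterion could not be applied there. No paired analysis was possible because the samples form 1 group.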
